A study of Homo sapiens with 12 samples.

Results

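The response of UM-UC9 cells, a human urothelial (bladder) cancer line, to rosiglitazone was measured across all genes detected on Illumina bead arrays. The members are the 6 arrays of this line among the 12 arrays of the series, taken by their titles: 3 of untreated control cells and 3 of cells given 1 µM rosiglitazone for 24 hours. The other arrays came from a second urothelial line, UM-UC14, and enter only the normalization and the estimate of the spread. The series set rosiglitazone-treated UM-UC9 cells against untreated cells, and UM-UC14 cells with a knockdown of FABP4 against UM-UC14 cells with a non-targeting shRNA. Both UM-UC9 groups carried no other alteration named in the labels, grew in MEM with serum, and the labels do not say whether the controls received the solvent of the drug. The line is 1 tumour cell population without stroma or immune cells, and 1 dose and 1 time were measured. In RNA from a whole culture, fewer cells expressing a gene and less of its RNA per cell cannot be told apart. The labels do not say that the 3 arrays of a group came from separate cultures, so p-values measure a spread that may be technical. All levels below are normalized log2 intensities, a fold change is rosiglitazone minus control on that scale, and a gene is called higher or lower at an adjusted p below 0.05 in limma's moderated test (Benjamini-Hochberg over all genes tested).

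Rosiglitazone is a thiazolidinedione, an agonist of PPARG. This nuclear receptor pairs with a retinoid X receptor, binds a direct repeat of hexamers spaced by a single base (a DR1 element) and, once it holds a ligand, recruits coactivators. It drives fat cell differentiation and fatty acid storage in adipose tissue, and in urothelium it acts with FOXA1 and GATA3 in luminal differentiation. Ligand-bound PPARG can also restrain inflammatory genes, and thiazolidinediones have effects on mitochondria that do not need the receptor.

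Arrays of 1 group correlated at r of 0.9954 to 0.9968 across genes, and arrays of different groups at 0.9752 to 0.9814. Between 20892 and 22095 of 47323 probes were detected on an array (detection p below 0.05), and the median raw intensity was 54.2 to 59.4 in controls and 60.4 to 62.6 with the drug. The epithelial markers EPCAM, CDH1, KRT7, KRT8, KRT18 and KRT19 were detected on all 6 arrays, as were 7 of the 9 luminal urothelial markers listed. UPK1A was detected on none of the 6, and UPK3A, TP63 and KRT6A had no probe that passed the detection filter. Neither had the defining genes of other cell types: PTPRC and CD3E of blood, PDGFRA and PDGFRB of fibroblasts and ADIPOQ and PLIN1 of fat cells. Other markers of these types were detected on all 6 arrays and called: LUM of fibroblasts rose by 0.75, PECAM1 of endothelium rose by 0.53 and LEP of fat cells fell by 0.67. CD14 of monocytes fell by 0.52 (-0.43 without control replicate 1, limma adjusted p = 0.051), and CFD of fat cells rose by 0.43 (0.30 to 0.42 without control replicate 2 or 3 or treated replicate 3, adjusted p of 0.058 to 0.099). The summed intensity of the 5 kept fibroblast markers was 257 to 282 in controls and 320 to 335 with the drug, against 49355 to 51279 and 59537 to 60189 for the epithelial markers. The summed intensity of the 5 kept blood and endothelial markers was 368 to 410 in controls and 482 to 492 with the drug, and that of the 4 kept fat cell markers, most of it CFD, was 4302 to 4638 and 4965 to 6905. The part of these cell types in the results was not tested. Among treated arrays, replicate 2 stood nearest to the controls more often than the others: it was the lowest treated array for 1122 of the 2259 genes called higher and the highest for 1174 of the 2530 called lower. With replicate 2 left out, 4261 genes were called, and 4069 of these calls were shared with the fit of all arrays.

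Of 13293 genes tested, 4789 were called (36.0%), 2259 of them higher (17%) and 2530 lower (19%). For 7166 genes (53.9%) the values of the 3 treated arrays lay wholly above or wholly below those of the 3 controls. Most calls were small: 57.6% were under 1.5-fold, and the median absolute log2 fold change of the called genes was 0.532. At least 2-fold differences were found in 539 genes, 316 higher and 223 lower, and at least 4-fold differences in 34 higher and 22 lower. The median SD over 3 arrays was 0.0967 in controls and 0.109 with the drug, and the median log2 fold change of all genes was -0.0172. Each group of genes described here is to be read against these shares. The groups were chosen with earlier results of these data known, so a share above that of all genes is a description and not a test.

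**Figure D1:**
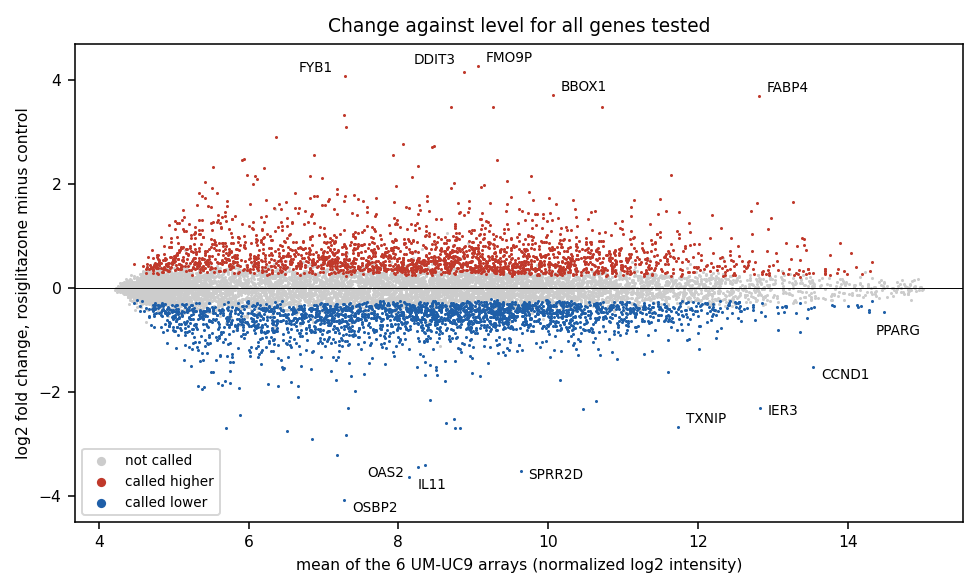
Change against level for the 13293 genes tested: the log2 fold change (rosiglitazone minus control, y) against the mean normalized log2 intensity of the 6 UM-UC9 arrays (x), with each point a gene. Red points are the 2259 genes called higher and blue points the 2530 called lower. FABP4 rose by 3.69 and OSBP2 fell by 4.08, while most called genes lie close to the zero line.

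The 4 genes with the largest rises were FMO9P, DDIT3, FYB1 and BBOX1. FMO9P, a pseudogene of the flavin monooxygenase family, read 7.06, 6.88 and 6.83 in controls and 11.13, 11.15 and 11.35 with rosiglitazone. The groups stood far apart, by 4.29 (SE 0.16, limma adjusted p = 5.8e-10). FYB1, an adaptor protein best known from T cell receptor signalling, read 5.41, 5.01 and 5.32 against 9.26, 9.46 and 9.30, a difference of 4.09 (SE 0.29). CRH, the hormone that releases corticotropin from the pituitary, read 7.25, 6.83 and 6.79 against 10.65, 10.10 and 10.60 (log2 fold change 3.49, SE 0.15). In CRH, as in many genes below, treated replicate 2 was the lowest of the treated arrays and still well above every control. SCGB2A1, a small secreted secretoglobin, rose by 3.10 (SE 0.18), and APOA2, an apolipoprotein of high-density lipoprotein, by 2.56 (SE 0.11). PADI4, which converts arginine residues of proteins to citrulline, rose by 2.78, ACSM3, a medium-chain acyl-CoA synthetase of mitochondria, by 2.73, and GLDN, a membrane protein known from the nodes of peripheral nerve, by 2.71. ECM2, an extracellular matrix protein, rose by 2.91 from a level detected on 2 of the 3 control arrays.

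The 4 genes with the largest falls were OSBP2, IL11, SPRR2D and OAS2. OSBP2, an oxysterol-binding protein, read 9.21, 9.44 and 9.30 in controls and 5.21, 5.31 and 5.19 with rosiglitazone. It fell by 4.08 (SE 0.09, limma adjusted p = 5.5e-12) and was still detected on all 3 treated arrays. PAPPA, a metalloproteinase that releases insulin-like growth factors from their binding proteins, read 8.29, 8.18 and 8.41 against 5.25, 5.45 and 5.48 (log2 fold change -2.90, SE 0.13). DIO2, the deiodinase that activates thyroid hormone, read 7.79, 7.95 and 7.91 against 5.01, 5.12 and 5.28 (log2 fold change -2.75, SE 0.37). The SE of DIO2 rests on a spread shared with the UM-UC14 arrays, and with the 6 UM-UC9 arrays alone its adjusted p was 2.28e-07. IER3, an immediate early survival gene, was among the brightest of the strongly changed genes, at 13.98, 13.99 and 13.95 against 11.72, 11.69 and 11.61, and fell by 2.30.

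**Figure D2:**
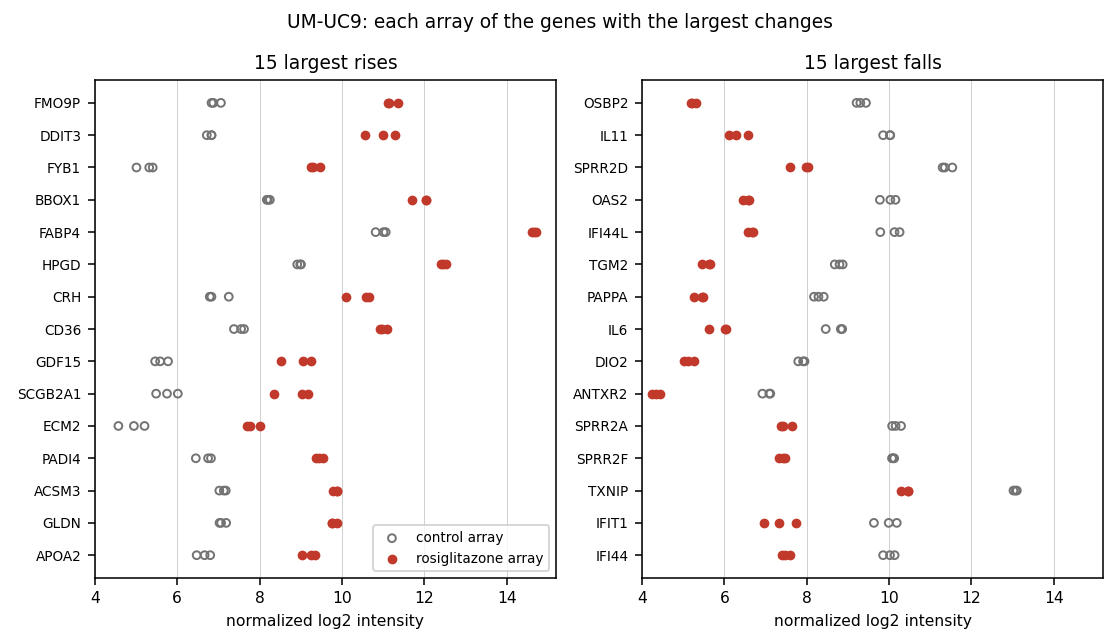
Each array of the 15 genes with the largest rises (left) and the 15 with the largest falls (right) among called genes whose groups do not overlap; x is the normalized log2 intensity, open circles are the 3 control arrays and red points the 3 rosiglitazone arrays. In every row the colours are separated, and ANTXR2 in treated cells lies at the left edge because it was detected on no treated array.

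Some genes crossed the detection limit. By the probe used for each gene, 90 were detected on all 3 treated arrays and on no control, and 76 showed the reverse, so that their folds are lower bounds set against the detection limit of the dim arrays. SLC2A3, a high-affinity glucose transporter, read 7.27, 6.55 and 7.63 with the drug and was not detected in controls, at least 5.03-fold higher (limma adjusted p = 0.00013). UCP1, the uncoupling protein of brown fat mitochondria, was at least 2.72-fold higher, with treated values of 6.20, 6.47 and 6.10. PRUNE2 was at least 3.67-fold higher, TCP11L2 at least 2.72-fold higher and ACTG2, the gamma actin of smooth muscle, at least 3.14-fold higher. AQP7, a channel for glycerol, was at least 2.08-fold higher, and its pseudogene AQP7P1 at least 3.19-fold, though probes may not separate these near-identical copies. In the other direction, EXD3 was at least 4.92-fold lower, with 7.05, 7.20 and 7.09 in controls. ANTXR2, a cell-surface receptor that binds matrix proteins, was at least 4.7-fold lower, and GRAMD1B, a protein that carries cholesterol from the plasma membrane to the endoplasmic reticulum, at least 2.74-fold lower. TMEM158 was at least 2.91-fold lower, DMBT1, a secreted mucosal glycoprotein, at least 2.26-fold lower, and the small nucleolar RNA SNORA27 at least 2.83-fold lower.

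The PPAR target genes rose or did not change: of 21 tested, 12 were higher and none lower (57.1% called against 36.0% of all genes), with a median log2 fold change of 0.495. With control replicate 1 or treated replicate 2 left out, 1 member was called lower. FABP4, the fatty acid carrier that the series centres on, read 11.06, 11.01 and 10.82 in controls and 14.61, 14.71 and 14.66 with rosiglitazone. It was thus among the brightest genes of the treated cells, 12.9-fold above the controls (log2 fold change 3.69, SE 0.11, limma adjusted p = 7.7e-11). CD36, which takes up fatty acids at the cell surface, read 7.62, 7.38 and 7.55 against 10.98, 10.92 and 11.09, an 11.2-fold difference. PDK4, a kinase that turns off pyruvate dehydrogenase and so spares glucose, read 7.78, 7.65 and 7.79 against 9.67, 9.69 and 9.61 (log2 fold change 1.92, SE 0.18). The control and treated arrays of these 3 genes lay far apart. PLIN2, a coat protein of lipid droplets, rose by 1.64, the acyl-CoA synthetases ACSL5 and ACSL1 by 1.04 and 0.93, and PNPLA2, the lipase that opens triglyceride breakdown, by 0.65. ANGPTL4, a secreted inhibitor of lipoprotein lipase, rose by 0.86 and UCP2 by 1.16. Other fatty acid binding proteins did not follow FABP4: FABP5, bright on every array, had a log2 fold change of -0.15 (adjusted p = 0.20).

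Of 5 receptors tested 2 rose and 2 fell (80.0% called against 36.0% of all genes), with log2 fold changes of -0.46 to 0.57. PPARG read 14.78, 14.68 and 14.67 in controls and 14.22, 14.26 and 14.27 with the drug, without overlap, and fell by 0.46 (SE 0.11, limma adjusted p = 0.0065) at a bright level on all 6 arrays. PPARA, the receptor of liver fatty acid oxidation, rose by 0.57. PPARD rose by 0.37 and RXRA, the partner receptor, fell by 0.35, and both calls were lost in some fits that left out 1 array: without control replicate 3 the values were 0.29 (adjusted p = 0.075) and -0.35 (0.061), without treated replicate 1 PPARD was at 0.29 (0.075), and without control replicate 1 or treated replicate 2 or 3 RXRA was at -0.33, -0.33 and -0.32 (0.073, 0.066 and 0.082). The coactivator NCOA1 rose by 0.88, whereas PPARGC1B, a coactivator of mitochondrial genes, fell by 0.57.

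Fatty acid oxidation genes rose broadly and by modest amounts. Of 33 tested, 25 were higher and 3 lower, with a median of 0.638. In the mitochondrial arm 11 of 16 rose and none fell. ACADM, which opens the oxidation of medium-chain fatty acids, read 10.81, 10.63 and 10.79 against 12.00, 11.96 and 11.95, a rise of 1.23 (SE 0.13). Among the other members called, the thiolase ACAA2 rose by 1.14, DECR1, the reductase for unsaturated chains, by 1.10, HADHB and HADHA, the subunits of the trifunctional protein, by 1.01 and 0.86, and ETFA, which passes electrons on to the respiratory chain, by 0.96. The 5 members not called were ACADSB, ACADL, the hydratase ECHS1, the isomerase ECI1 and ETFB, the partner of ETFA, at -0.16 to 0.26. In the peroxisomal arm 10 of 11 rose, led by the bifunctional enzyme EHHADH at 1.49, catalase (CAT) at 1.11 and the thiolase ACAA1 at 1.04. CROT, which loads medium chains onto carnitine for export from the peroxisome, fell by 0.44. Among thioesterases, which release free fatty acids from coenzyme A, ACOT2 rose by 1.41, ACOT1 by 0.96 and ACOT13 by 0.76, while ACOT9 fell by 0.48. ACOT1 and ACOT2 are near-identical, and a probe of one may also read the other.

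Carnitine carries fatty acids into mitochondria, and here the genes of the pathway split. BBOX1, the last enzyme of carnitine synthesis, read 8.25, 8.18 and 8.20 against 12.03, 12.04 and 11.69, a 13.1-fold rise (log2 fold change 3.71, SE 0.10). TMLHE, the first enzyme, rose by 0.59. SLC22A5, which imports carnitine from outside the cell, read 7.69, 7.61 and 7.70 against 6.96, 7.21 and 6.98, and fell by 0.62 without overlap. In the shuttle itself CRAT, the short-chain acyltransferase, rose by 1.26 and CPT2 of the inner membrane by 0.51. SLC25A20, the carrier across that membrane, had a log2 fold change of 0.19 (adjusted p = 0.25). CPT1A, usually the control point of entry, was not called (log2 fold change 0.03, adjusted p = 0.91) by the brightest of its 3 kept probes over all 12 arrays.

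Sterol synthesis and sterol export were both higher. Of 23 genes of synthesis and uptake, 16 rose and 2 fell (median 0.572). The falls rest on the full set of arrays, since without control replicate 2 or 3 or treated replicate 3 none was called lower, and 1 without treated replicate 2. TM7SF2, a sterol reductase of the late pathway, read 7.70, 7.68 and 7.64 against 9.14, 8.99 and 9.33 (log2 fold change 1.48, SE 0.09). INSIG1, which holds the sterol sensor in the endoplasmic reticulum, rose by 1.57, ACAT2, at the start of the pathway, by 1.07, and MSMO1 by 0.91. SQLE, an oxygenase that limits the flux of the pathway, had a log2 fold change of 0.12 (adjusted p = 0.39). On the export side 5 of 6 rose and none fell: ABCG1, which passes cholesterol to high-density lipoprotein, read 10.36, 10.30 and 10.26 against 12.08, 11.80 and 12.11, a rise of 1.69. The oxysterol receptor NR1H3, a regulator of that exporter, rose by 0.77 and ABCA1 by 0.54. Fatty acid synthesis moved little: SCD, the desaturase, rose by 1.05, FASN had a log2 fold change of 0.18 (adjusted p = 0.14) and ACACA, the first committed enzyme, fell by 0.34. In glycerolipid assembly 6 of 10 rose, with the phosphatidate phosphatase LPIN1 at 1.52 and the acyltransferase AGPAT2 at 0.94.

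**Figure D3:**
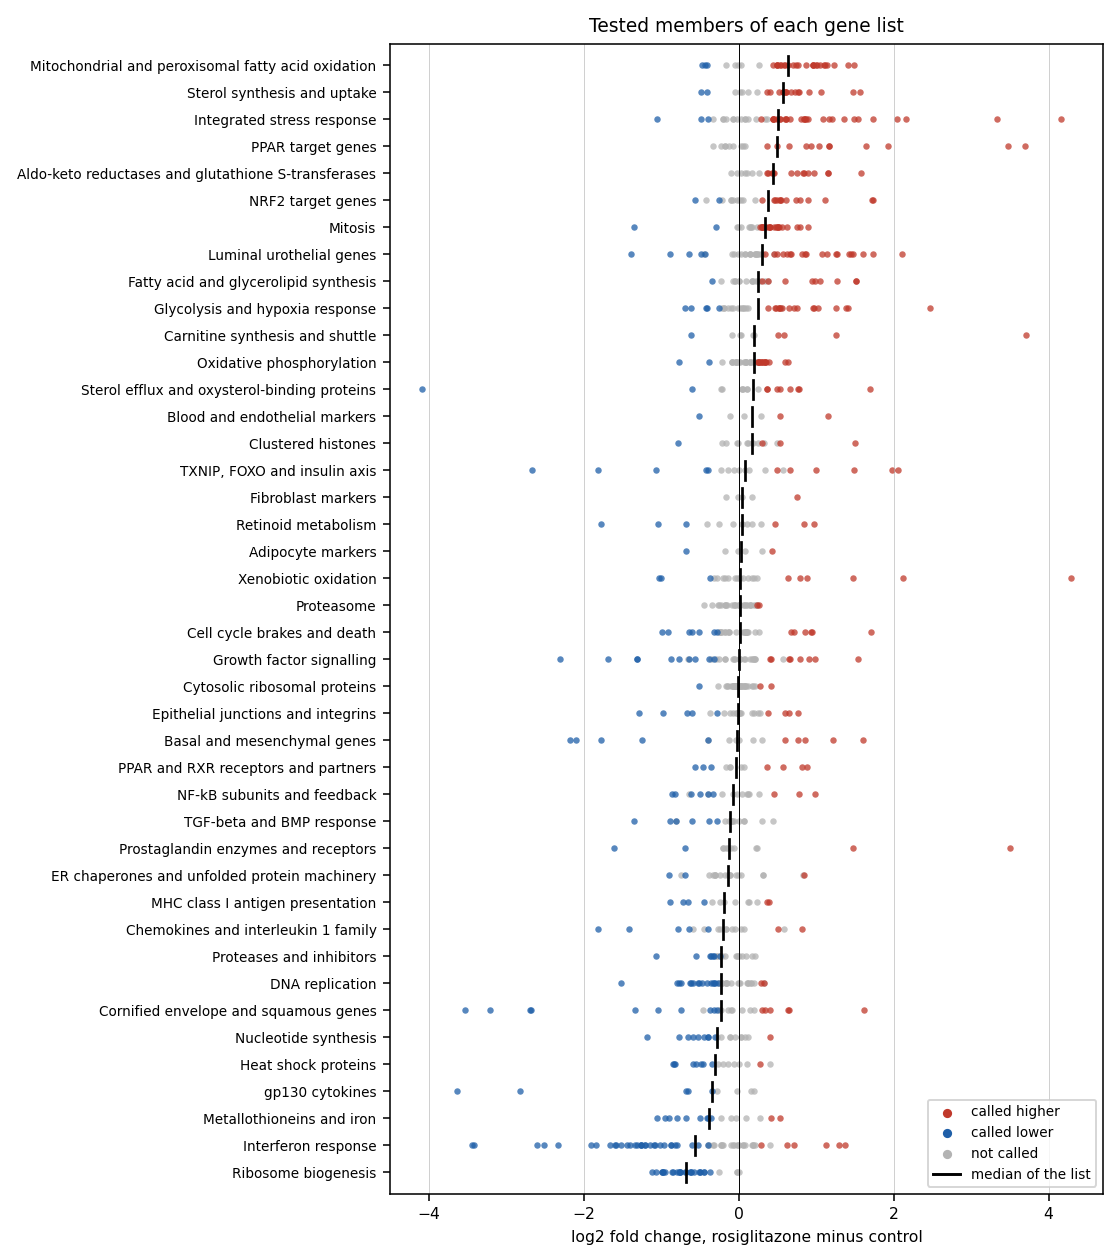
Log2 fold change (rosiglitazone minus control, x) of every tested member of each gene list (rows, ordered by the median, black bar), with each point a gene. Red points were called higher, blue lower and grey not called. Fatty acid oxidation lies at the top with a median of 0.638 and ribosome biogenesis at the bottom with -0.681.

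Genes of the integrated stress response, in which kinases slow translation and the factor ATF4 turns on amino acid supply and repair, were higher. Of 46 tested, 29 rose and 3 fell (63% higher against 17% of all genes), with a median of 0.511. Among the transcription factors and feedback genes 13 of 14 rose, with a median of 1.28. DDIT3, the factor also known as CHOP, read 6.83, 6.83 and 6.72 in controls and 11.01, 10.56 and 11.29 with rosiglitazone, a 17.8-fold rise (log2 fold change 4.16, SE 0.31, limma adjusted p = 5.0e-07). GDF15, a stress-induced cytokine, read 5.78, 5.46 and 5.59 against 9.06, 8.52 and 9.25, and PPP1R15A, which restarts translation, read 8.67, 8.73 and 8.66 against 11.04, 10.44 and 11.08. In all 3 genes treated replicate 2 was the lowest treated array, and it was so for 17 of the 29 members that rose. ATF4 itself rose by 1.48 (SE 0.10) and ATF3 by 1.53. CHAC1, which degrades glutathione, was not detected in controls and read 6.43, 6.50 and 6.38 with the drug, at least 3.08-fold higher. TRIB3, a pseudokinase that feeds back on ATF4, read 9.68, 9.77 and 9.64 against 11.08, 10.87 and 11.23. The rise of 1.36 had an SE of 0.47 in the fit shared with the UM-UC14 arrays (adjusted p = 0.036), and the call was lost in each fit that left out 1 of the 6 UM-UC9 arrays, at 1.28 to 1.46 (adjusted p of 0.060 to 0.106). In a fit of the 6 UM-UC9 arrays alone its adjusted p was 2.17e-05. ATF5, another factor of the family, fell by 1.05, with 9.33, 9.50 and 9.30 against 8.21, 8.52 and 8.25.

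The supply side of the stress response moved less. SLC7A11, the cystine importer, was at least 2.77-fold higher, from no detection in controls to 6.40, 6.18 and 6.27. PSAT1 of serine synthesis rose by 0.89, CTH of transsulfuration by 0.84, and ASNS, asparagine synthetase, by 1.09, though without treated replicate 3 ASNS was at 0.99 with an adjusted p of 0.054 in limma. Among cytosolic tRNA synthetases 7 of 16 rose, with AARS1 at 0.86 and GARS1 at 0.85, and HARS1 and RARS1 fell by 0.49 and 0.39. The promoters of CHAC1 and ASNS are shown because each holds the core of an amino acid response element, TGATGNAA, the site type to which ATF4 binds, with the match in capitals (either strand). The windows run from 250 bases before to 50 after the gene's start, from RefSeq (GRCh38.p14), at chr15:40953221-40953520 (plus strand) and chr7:97872359-97872658 (minus strand).
CHAC1: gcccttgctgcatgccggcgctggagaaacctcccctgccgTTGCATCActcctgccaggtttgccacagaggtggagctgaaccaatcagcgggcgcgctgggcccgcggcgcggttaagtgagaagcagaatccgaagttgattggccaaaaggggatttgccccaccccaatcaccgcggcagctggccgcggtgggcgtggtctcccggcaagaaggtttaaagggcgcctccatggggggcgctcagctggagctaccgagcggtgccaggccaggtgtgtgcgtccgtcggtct
ASNS: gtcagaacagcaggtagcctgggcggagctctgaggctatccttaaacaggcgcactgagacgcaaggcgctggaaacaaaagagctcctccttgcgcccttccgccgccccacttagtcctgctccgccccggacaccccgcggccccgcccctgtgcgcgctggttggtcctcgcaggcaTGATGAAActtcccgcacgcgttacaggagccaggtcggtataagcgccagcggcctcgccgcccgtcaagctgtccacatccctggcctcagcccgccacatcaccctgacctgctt
This core was present in 10 of the 38 promoters of tested stress response genes (26.3%), in 1.85% of the 10562 promoters of all tested genes that the table held and in 1.96% of those of all genes called higher. Within the list it did not follow the change: 4 of 24 promoters of members that rose held it, and 6 of 11 promoters of members that were not called.

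Chaperones did not follow the stress factors. In the endoplasmic reticulum none of 13 tested chaperones was called higher. HSPA5, the main chaperone of that compartment, read 8.92, 8.89 and 8.95 against 8.70, 8.32 and 9.02, with overlapping groups (log2 fold change -0.24, adjusted p = 0.50). CALR, calreticulin, read 11.72, 11.80 and 11.83 against 10.98, 10.74 and 10.91, a fall of 0.91. When only the 6 UM-UC9 arrays were normalized and fitted, 7 genes of the full list of 22 were lower and 3 higher, in place of 2 and 1. Heat shock proteins of the cytosol and mitochondria were lower for 8 of 16 and higher for 1. HSPA8, the constitutive heat shock protein, fell by 0.85. Its partner DNAJA1 read 12.73, 12.61 and 12.66 against 11.71, 11.97 and 11.82, and fell by 0.83 without overlap. HSPA1A, an inducible heat shock protein with a near-identical copy, fell by 0.82. HSPB1, the single member called higher, rose by 0.28, and without control replicate 1 or treated replicate 1 it was at 0.23 (adjusted p = 0.083) and 0.25 (0.071).

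**Figure D4:**
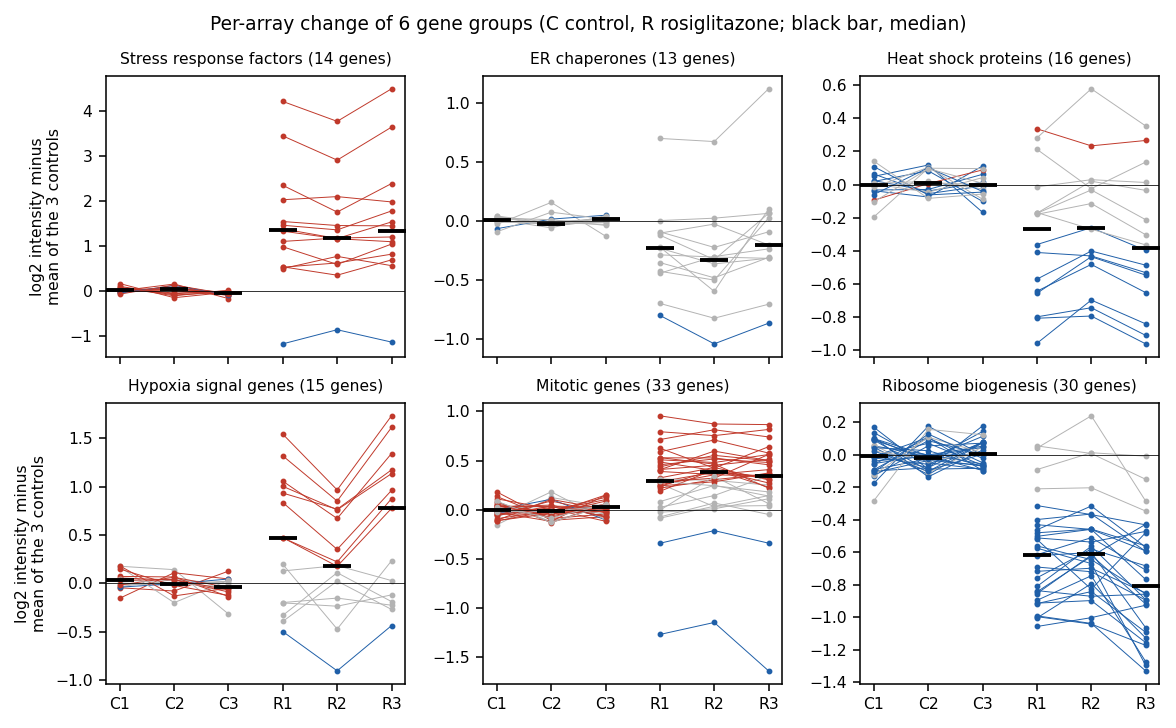
Per-array change of 6 gene groups: for each gene (line) the normalized log2 intensity minus the mean of its 3 controls (y) on each UM-UC9 array (x; C1 to C3 control, R1 to R3 rosiglitazone), with the median as a black bar. Red genes were called higher, blue lower and grey not called. The 14 stress factors and the 13 chaperones of the endoplasmic reticulum part, and the hypoxia signal genes dip in treated replicate 2. Of the 30 ribosome biogenesis genes, 27 lie below the controls on all 3 treated arrays.

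Glucose handling changed in a mixed way. Of 36 glycolysis and hypoxia genes, 17 rose and 5 fell (median 0.246), and treated replicate 2 was the lowest treated array for 16 of the 17 that rose. The falls were 2 or 3 in each fit that left out 1 of the arrays other than treated replicate 2. NDRG1, a gene induced by low oxygen, read 11.56, 11.55 and 11.35 in controls and 13.03, 12.45 and 13.22 with the drug, so that treated replicate 2 stood apart from the other treated arrays, and all lay above the controls (log2 fold change 1.42, SE 0.18). VEGFA, the vascular growth factor, rose by 0.97 and ANKRD37 by 1.26. HK2, the hexokinase of insulin-sensitive tissue, read 10.53, 10.34 and 10.38 against 11.77, 11.64 and 11.99, a rise of 1.38. PKM, pyruvate kinase at the other end of glycolysis, read 12.16, 12.29 and 12.19 against 11.51, 11.37 and 11.69 and fell by 0.69. CA12, a carbonic anhydrase that low oxygen usually induces, fell by 0.62.

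Of 5 alpha-arrestin genes tested, a family with members that answer to glucose, 3 fell and none rose. ARRDC3 had a log2 fold change of 0.58 and ARRDC1 of -0.14, and neither was called. TXNIP, which blocks glucose uptake and thioredoxin, read 13.07, 13.10 and 13.02 in controls and 10.29, 10.45 and 10.45 with rosiglitazone. The groups were far apart, and TXNIP fell by 2.67 with an SE of 0.57 in the shared fit (limma adjusted p = 0.0026), or with an adjusted p of 1.5e-07 in the 6 UM-UC9 arrays alone. ARRDC4, its close relative, was at least 3.22-fold lower, from 6.52, 6.50 and 6.48 to no detection. In insulin signalling the adaptor IRS2 rose by 1.98, from 8.35, 7.95 and 8.15 to 9.97, 9.99 and 10.42, while the related IRS1 fell by 1.06. FBXO32, a ubiquitin ligase and target gene of FOXO factors in muscle, rose by 2.05 and FOXO1 by 0.66.

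Genes of the oxidant response and of conjugation were higher more often than lower. Of 23 xenobiotic oxidation genes 6 rose and 3 fell, 39.1% called against 36.0% of all genes, and retinoid genes rose as often as they fell. Of 26 NRF2 target genes, which answer oxidants and electrophiles, 14 rose and 2 fell (median 0.381). PIR, an iron-binding nuclear protein, rose by 1.72, haem oxygenase HMOX1 by 1.11, the exporter ABCC3 by 0.89 and NQO1 by 0.53. TXNRD1, thioredoxin reductase and a standard NRF2 target, fell by 0.57, from 11.08, 11.04 and 11.01 to 10.40, 10.54 and 10.49. It was the only member called lower in each fit that left out 1 UM-UC9 array. Of 21 aldo-keto reductases and glutathione S-transferases, 14 rose and none fell. AKR1B10, which reduces retinal and lipid aldehydes, was at least 2.7-fold higher from no detection, AKR1C3 rose by 0.83 and MGST3 by 1.15. Probes for AKR1C2, AKR1C4, GSTM1 and GSTM2 may read near-identical relatives. Of 17 genes of the cytochrome P450 group 4 rose and 2 fell (35.3% called). CYP4F12 rose by 2.12 and the epoxygenase CYP2J2 by 1.47, CYP1A2 fell by 1.01, and CYP1A1, the usual target of the dioxin receptor, had a log2 fold change of 0.19 (adjusted p = 0.52). Of 14 retinoid genes 3 rose and 3 fell, and 5 fell in the fit without treated replicate 3. ALDH1A3, which makes retinoic acid, read 11.16, 11.03 and 10.95 against 9.29, 9.39 and 9.15 and fell by 1.77, RARA, a retinoic acid receptor, fell by 0.68, and RDH10 and DHRS3, which interconvert retinol and retinal, rose by 0.97 and 0.85.

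Iron handling genes fell more often than they rose. Of 9 genes of iron handling, 6 fell and none rose: SLC25A37, the iron importer of mitochondria, fell by 1.06, the metalloreductase STEAP1 by 0.89, and the exporter SLC40A1 (ferroportin) by 0.80. FTL, the light chain of ferritin, which was counted among the NRF2 targets, rose by 0.50. MT2A, a metallothionein that binds zinc and copper, read 8.07, 8.06 and 8.09 against 7.11, 6.88 and 7.39 and fell by 0.95. Of the 7 genes of the metallothionein group 3 fell and 2 rose. The risers were MT1F at 0.54, which lost its call without control replicate 2 or 3 or treated replicate 1 or 3 (0.45 to 0.53, limma adjusted p of 0.073 to 0.114), and MT1E at 0.42, which lost it without treated replicate 3 (0.37, 0.052). Metallothioneins share much sequence, and their probes may not be separate.

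Interferon response genes were lower, in cells to which the labels name no interferon as added. Of 60 tested, 32 fell and 6 rose (53.3% lower against 19% of all genes), with a median of -0.565. OAS2, which senses double-stranded RNA, read 10.03, 10.16 and 9.78 in controls and 6.58, 6.44 and 6.60 with rosiglitazone, a 10.9-fold fall (log2 fold change -3.45, SE 0.16, limma adjusted p = 4.8e-09). IFI44L read 10.26, 10.13 and 9.79 against 6.70, 6.57 and 6.67 (-3.41), and ISG15, a ubiquitin-like modifier, 11.72, 11.75 and 11.44 against 9.27, 9.26 and 9.38 (-2.34). IFIT1, which binds foreign RNA ends, fell by 2.60, IFITM1 and IFITM3, which block virus entry, by 1.84 and 1.67, and TRIM22 by at least 2.93-fold to no detection. The IFITM genes are near-identical relatives. Upstream, IRF9, the DNA-binding part of the interferon-activated complex, read 10.85, 10.78 and 10.69 against 9.56, 9.25 and 9.88 and fell by 1.21, and the DNA sensor CGAS fell by 1.27 and the RNA sensor IFIH1 by 1.01. IRF7 was detected on none of the 6 arrays.

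A few interferon-induced genes went the other way or stayed level. MX1, a dynamin-like antiviral GTPase, read 8.48, 8.64 and 8.21 in controls and 9.57, 9.41 and 9.74 with the drug, a rise of 1.13 (SE 0.29, adjusted p = 0.0090 in limma), whereas its neighbour in the family, MX2, read 7.39, 7.41 and 6.82 against 5.87, 5.39 and 5.82 and fell by 1.51. EPSTI1 rose by 1.37, from 5.68, 5.26 and 5.52 to 6.64, 6.94 and 6.98. GBP2, a guanylate-binding protein, rose by 1.30, and IRF1, an interferon-induced transcription factor, by 0.71. OAS1, in the same family as OAS2, had overlapping groups and a log2 fold change of 0.18 (adjusted p = 0.55). MX1 and MX2 thus moved in opposite directions, and OAS2 fell while OAS1 was not called.

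The promoters of 2 genes that fell, ISG15 and IFIT1, and of 2 that rose, MX1 and EPSTI1, are shown because all hold the core of the interferon-stimulated response element (ISRE), the site of the IRF9 complex. The core searched was GAAANNGAA on either strand, and matches are in capitals, merged where they overlap. The windows, again of RefSeq and GRCh38.p14, are chr1:1013247-1013546 (ISG15, plus strand), chr10:89392373-89392672 (IFIT1, plus), chr21:41420308-41420607 (MX1, plus) and chr13:42992192-42992491 (EPSTI1, minus).
ISG15: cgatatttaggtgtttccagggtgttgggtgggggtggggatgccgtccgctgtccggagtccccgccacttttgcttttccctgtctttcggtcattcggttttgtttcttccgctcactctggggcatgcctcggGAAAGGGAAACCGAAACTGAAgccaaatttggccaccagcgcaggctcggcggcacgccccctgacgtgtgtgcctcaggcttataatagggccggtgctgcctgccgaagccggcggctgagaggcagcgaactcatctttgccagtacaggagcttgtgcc
IFIT1: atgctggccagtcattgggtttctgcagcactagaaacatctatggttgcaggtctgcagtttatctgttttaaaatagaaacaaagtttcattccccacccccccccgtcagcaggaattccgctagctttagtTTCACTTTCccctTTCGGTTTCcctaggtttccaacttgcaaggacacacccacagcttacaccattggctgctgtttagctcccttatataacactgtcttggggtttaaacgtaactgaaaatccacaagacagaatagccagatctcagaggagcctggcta
MX1: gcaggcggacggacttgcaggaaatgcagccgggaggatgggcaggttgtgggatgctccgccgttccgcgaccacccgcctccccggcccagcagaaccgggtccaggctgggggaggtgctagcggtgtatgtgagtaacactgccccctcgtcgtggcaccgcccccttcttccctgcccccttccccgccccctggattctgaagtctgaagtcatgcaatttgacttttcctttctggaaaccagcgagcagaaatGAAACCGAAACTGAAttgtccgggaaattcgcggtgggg
EPSTI1: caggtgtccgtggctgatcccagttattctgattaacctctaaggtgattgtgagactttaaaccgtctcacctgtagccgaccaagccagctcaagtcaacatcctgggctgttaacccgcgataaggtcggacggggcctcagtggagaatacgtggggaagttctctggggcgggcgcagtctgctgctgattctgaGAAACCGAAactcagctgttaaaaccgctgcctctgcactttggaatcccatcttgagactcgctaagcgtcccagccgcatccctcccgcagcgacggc
ISG15 holds 3 matches, IFIT1 and MX1 hold 2 each and EPSTI1 holds 1. These 4 were picked because they hold the core. Among promoters of tested interferon genes the core was found in 27 of 45 (60%): in 18 of the 24 that fell, 3 of the 5 that rose and 6 of the 16 not called. It was found in 6.65% of the promoters of all tested genes and in 18.9% of the 159 promoters of all genes that fell at least 2-fold, against 7.47% of the 241 of genes that rose at least 2-fold. Both of these sets include members of the interferon list, ISG15 and IFIT1 among those that fell and MX1 and EPSTI1 among those that rose. Their shares are thus not separate from the counts within the list. A DR1 element, searched as 2 copies of AGGNCA spaced by 1 base on either strand, was in 0.189% of promoters of tested genes and in none of the 18 of PPAR target genes or the 27 of fatty acid oxidation genes, which says only that these letters are not in these windows.

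**Figure D5:**
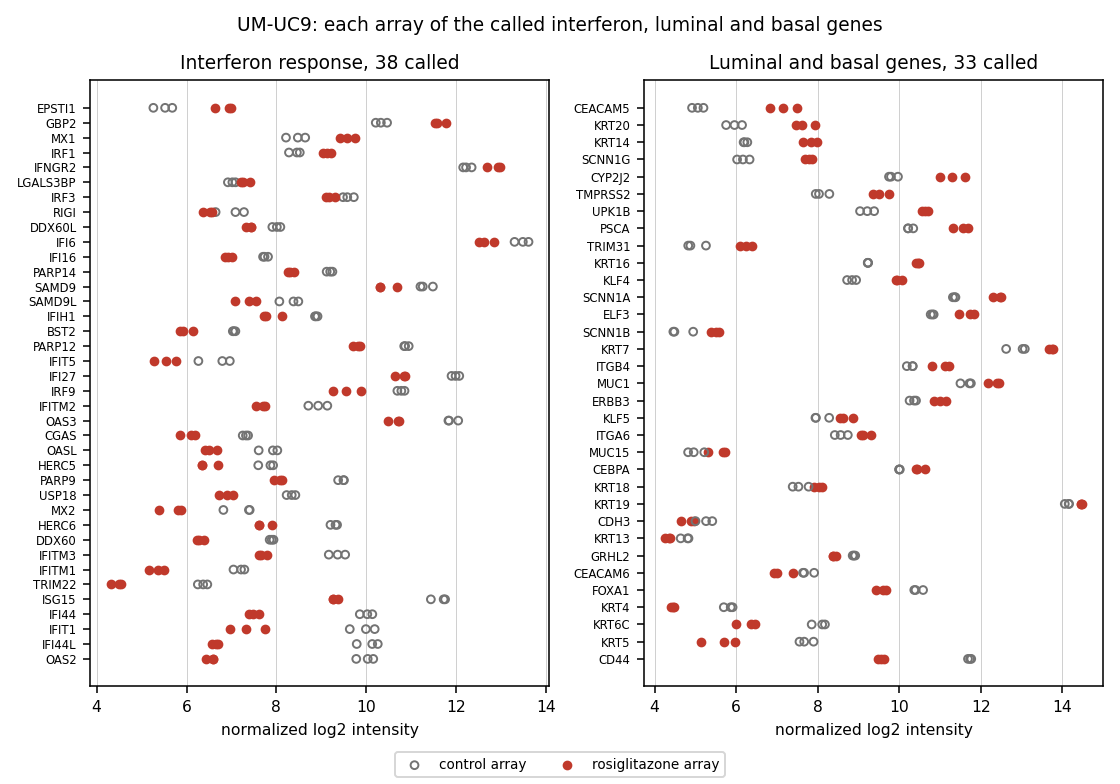
Each array of the 38 called interferon response genes (left) and the 33 called luminal and basal genes (right), ordered by log2 fold change from the highest rise to the deepest fall; x is the normalized log2 intensity, open circles are control arrays and red points rosiglitazone arrays. Interferon genes from OAS2 at the bottom upward lie left of their controls, with EPSTI1, GBP2, MX1, IRF1, IFNGR2 and LGALS3BP to the right. LGALS3BP, at 0.28 (limma adjusted p = 0.034), lost its call in the fits without control replicate 2 or 3 or treated replicate 1 or 3 (0.22 to 0.30, adjusted p of 0.063 to 0.138).

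Of 13 antigen presentation genes tested, 4 fell, 2 rose and 7 were not called (46.2% called against 36.0%). TAP1 and TAP2, the transporter that loads peptides onto class I molecules, fell by 0.72 and 0.88, and HLA-B had a log2 fold change of -0.34 (adjusted p = 0.11, or 0.0355 in the 6 UM-UC9 arrays alone). PSMB10, a subunit of the immunoproteasome, rose by 0.37 and lost its call under median scaling (0.31, limma adjusted p = 0.052). HLA-C, a class I heavy chain, rose by 0.39, but lost its call in each fit that left out 1 array other than treated replicate 2 (0.30 to 0.43, adjusted p of 0.050 to 0.142). Cytokines that signal through gp130 changed more. IL11 read 10.03, 9.86 and 10.02 against 6.11, 6.59 and 6.29, a 12.5-fold fall (log2 fold change -3.64, SE 0.17), and IL6 read 8.86, 8.46 and 8.83 against 6.05, 5.62 and 6.01 (-2.83, SE 0.14). Of 4 tested ligands of this family 3 fell, the third being LIF at -0.65, whose call was lost without control replicate 1 (-0.535, adjusted p = 0.079) or treated replicate 3 (-0.64, 0.054). SOCS3, the feedback inhibitor that gp130 signals usually induce, had overlapping groups (log2 fold change -0.02, adjusted p = 0.96). Of 10 chemokines 3 fell and 1, CCL28 of mucosal epithelia, rose by 0.82 (40.0% called against 36.0% of all genes). CXCL10 and CXCL5 fell by 1.82 and 1.42, while CXCL8 overlapped between groups (log2 fold change -0.05, adjusted p = 0.94). Of 8 interleukin 1 family genes 1 rose and 2 fell (37.5% called against 36.0% of all genes). IL1B was the riser, at 0.51, with 12.37, 12.48 and 12.41 against 12.89, 12.92 and 12.97. Of 19 NF-kB subunits and feedback genes 3 rose and 6 fell (47.4% called). The inhibitor NFKBIA, a direct read-out of NF-kB, had a log2 fold change of 0.14 (adjusted p = 0.57), SOD2, another NF-kB target, fell by 0.86, and TNF was at least 1.65-fold higher from no detection, at 5.67, 4.98 and 5.96.

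Of 12 prostaglandin genes tested 2 rose and 2 fell, 33.3% called against 36.0% of all genes, so the list as a whole stood at the background share. HPGD, which inactivates prostaglandins, read 8.99, 8.92 and 9.01 in controls and 12.46, 12.41 and 12.52 with rosiglitazone, an 11.3-fold rise (log2 fold change 3.50, SE 0.23). PTGR1, the reductase of the next step, rose by 1.47. PTGS2, the inducible cyclooxygenase that makes prostaglandins, read 12.40, 12.42 and 12.39 against 10.78, 10.64 and 10.97 and fell by 1.61 (SE 0.17). The phospholipase PLA2G4A, which supplies its substrate, was at least 1.34-fold lower, to no detection.

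Urothelial differentiation genes shifted, but the luminal regulators did not rise together. Of 13 uroplakin and umbrella cell genes, 9 rose and none fell, with a median of 1.26. KRT20, the keratin of umbrella cells, read 6.15, 5.76 and 5.96 against 7.63, 7.48 and 7.94 (log2 fold change 1.73, SE 0.13). UPK1B, a uroplakin, read 9.39, 9.04 and 9.22 against 10.56, 10.64 and 10.71 (1.42), while UPK2 overlapped between groups (0.02, adjusted p = 0.91). All 3 subunits of the epithelial sodium channel rose, SCNN1G by 1.61, SCNN1A by 1.07 and SCNN1B by 0.86. TMPRSS2, a membrane protease, rose by 1.45 and PSCA by 1.26, and CEACAM5 by 2.10 while its relative CEACAM6 fell by 0.64. Among the factors, KLF4 rose by 1.14 and ELF3 by 0.87. FOXA1 read 10.59, 10.37 and 10.40 against 9.62, 9.67 and 9.42, and fell by 0.89. GRHL2, a factor of epithelial junctions, fell by 0.49, and GATA3 had a log2 fold change of 0.26 (adjusted p = 0.26, or 0.039 in the 6 UM-UC9 arrays alone).

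Basal and squamous genes were divided as well. KRT5, the basal keratin, read 7.67, 7.90 and 7.56 against 5.72, 5.14 and 5.97 (log2 fold change -2.10, SE 0.17). CD44, a surface receptor for hyaluronan, read 11.69, 11.74 and 11.77 against 9.55, 9.48 and 9.63 (-2.18, SE 0.08). KRT14, which pairs with KRT5 in filaments, went the other way, from 6.19, 6.21 and 6.28 to 7.85, 8.00 and 7.65 (1.61, SE 0.19), and KRT16 rose by 1.22. KRT14, KRT16 and their pseudogenes are near-identical, so which of them the probes read is uncertain. Of the 11 basal genes tested, 4 rose and 4 fell. The cornified envelope genes SPRR2D, SPRR2A and SPRR2F fell, with log2 fold changes of -3.53, -2.69 and -2.69 and with SPRR2D at 11.54, 11.30 and 11.35 against 7.97, 7.61 and 8.04, although these close copies may be read by each other's probes. TGM2, the tissue transglutaminase that cross-links proteins, read 8.87, 8.80 and 8.68 against 5.63, 5.46 and 5.64 and fell by 3.21, whereas TGM5, an epidermal transglutaminase, rose by 1.62. Of 25 genes of epithelial junctions and integrins 4 rose and 5 fell, 36.0% called, which was the share of all genes. The collagen receptor subunit ITGA2 fell by 1.29 and the tight junction protein CLDN1 by 0.98. ITGB4 of hemidesmosomes rose by 0.76, and CDH1, E-cadherin, had a log2 fold change of 0.17 (adjusted p = 0.17).

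Genes of growth factor signalling changed in both directions. SPRY2, a feedback inhibitor of receptor tyrosine kinases, read 9.01, 9.02 and 8.94 against 7.70, 7.73 and 7.59 and fell by 1.32. DUSP4, a phosphatase of ERK, fell by 1.31, SPHK1 by 1.69 and FOSL1 by 0.88, but DUSP6 at -0.66 was not called (adjusted p = 0.065, and 0.00020 in the 6 UM-UC9 arrays alone) and the immediate early genes FOS and EGR1 rose by 0.90 and 0.79. Of the 15 genes of FGFR and ERK output, 6 fell and 3 rose. The largest of these rises, PHLDA1 at 0.65, was not shared by its other kept probe. That probe fell by 0.67 (limma adjusted p = 0.0052 over all kept probes), and the mean of both was -0.01 (0.97). SPRED2, called higher in the fit of all arrays, lost its call without control replicate 1 or 3 (0.38 and 0.33, adjusted p of 0.053 and 0.072). FGFR3 itself had a log2 fold change of 0.42 (adjusted p = 0.041) by its brightest probe and -0.03 (0.93) in the mean of its kept probes, and the call was lost in each fit that left out 1 array other than treated replicate 2 (0.28 to 0.46, adjusted p of 0.062 to 0.188). In the TGF-beta and BMP list 6 of 18 fell and none rose, 33.3% called against 36.0% of all genes and 33.3% lower against 19%. The largest fall was ID3 at -1.36, and ID1 was at 0.07 (adjusted p = 0.67).

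Cell cycle genes parted by phase. Of 33 mitotic genes, 22 rose and 2 fell, with a median of 0.334. CDC25C, the phosphatase that opens mitosis, read 7.61, 7.38 and 7.43 against 8.43, 8.35 and 8.34 (log2 fold change 0.90, SE 0.09), and the centromere protein CENPA rose by 0.79. MKI67, the usual marker of cycling cells, overlapped between groups (0.03, adjusted p = 0.90), and after median scaling 11 of the mitotic genes were called higher. Of 39 DNA replication genes, 16 fell and 2 rose (median -0.227), and 10 fell in the fit without treated replicate 1 and in that without treated replicate 3, while the rises were 0 or 1 in each fit that left out 1 array. CCND1, cyclin D1, read 14.26, 14.31 and 14.31 against 12.83, 13.02 and 12.48, and fell by 1.52 (SE 0.14). CCNE1 fell by 0.75 and MCM10 by 0.80. CDC25A, the phosphatase of the entry into S phase, fell by 1.35 and was counted among the mitotic genes that fell. For 14 of the 16 replication genes that fell, treated replicate 2 was the highest treated array. Of 36 genes of cell cycle brakes and cell death 6 rose and 7 fell (36.1% called against 36.0% of all genes). The cell cycle inhibitors divided: CDKN1A (p21) fell by 0.99, from 12.14, 12.13 and 12.02 to 11.11, 10.99 and 11.23, and CDKN1B (p27) rose by 0.71. GADD45B and GADD45A, stress-induced growth arrest genes, rose by 1.71 and 0.95.

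Ribosome biogenesis was the list with the most uniform change. Of 30 tested genes, 26 fell and none rose (86.7% lower against 19% of all genes), with a median of -0.681. RRP12, which exports ribosomal subunits from the nucleus, read 9.69, 9.81 and 9.60 against 8.71, 8.66 and 8.37 (log2 fold change -1.12, SE 0.17). POLR1B, a subunit of RNA polymerase I, fell by 1.07, the snoRNP protein NOP56 by 0.99 and nucleolin (NCL) by 0.77. MYC, a regulator of this group, read 11.94, 11.97 and 11.84 against 11.59, 11.68 and 11.61, which did not overlap and did not pass the test (log2 fold change -0.29, adjusted p = 0.084, or 0.016 in the 6 UM-UC9 arrays alone). The E-box letters CACGTG, to which MYC binds, were in 9 of the 24 promoters of tested members (37.5%) and in 9.93% of the promoters of all tested genes. Within the list they were in 8 of 20 promoters of members that fell and 1 of 4 not called. They were in 11.6% of the promoters of all genes called lower and in 8.18% of those of genes at least 2-fold lower. A part of MYC in these falls was not tested. Nucleotide synthesis moved the same way, with 9 of 19 lower and 1 higher, CTPS1, the CTP synthase, falling by 1.18. The ribosomal proteins did not: of 36 tested, 2 rose and 1 fell, with a median of -0.00635. In oxidative phosphorylation 14 of 43 rose and 2 fell. This was 37.2% called against 36.0% of all genes, and 32.6% higher against 17%. In the fits that left out 1 array 6 to 9 of these genes were higher, and 6 after median scaling. NDUFB5 of complex I rose by 0.64 and UQCRC2 of complex III by 0.60, while CYCS, cytochrome c, fell by 0.78. Of 30 proteasome subunits 2 rose and none fell (median 0.0108), and 0 or 1 rose in each fit that left out 1 array.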

How the data were processed

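Biotin-labelled RNA was hybridised to Illumina bead arrays. The authors deposited raw probe intensities and detection p-values, neither normalized between arrays, and a table of log2 values that matched the quantile-normalized log2 intensities within 0.0106 (its making is not stated in the labels). The intensities of all 12 arrays were background-corrected and quantile-normalized with neqc (limma 3.58.1, R 4.3.3, offset 16). A probe had to be detected (p below 0.05) on 3 or more of the 12 arrays, which left 25176 of 47323. Each gene was read by its brightest kept probe, named through GEO's platform annotation and current symbols, which gave 13293 genes. limma's lmFit and eBayes fitted 4 group means with 1 shared spread, and p-values were adjusted over all genes (Benjamini-Hochberg). The script was tested on simulated data. Where a gene was detected on no array of a group, the fold is a bound against each array's detection limit. Precision is limited by having 3 arrays in each group.

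The members and the 42 gene lists (1182 genes, 982 tested) were chosen with earlier results of these data known. Genes were named by a rule: core genes of each list, the 15 largest rises and falls, up to 4 called members a role each way, and up to 8 genes each way that crossed the detection limit. ACADL, ACADSB, ARRDC1, ARRDC3, ECHS1, ECI1, ETFA, ETFB, FABP5, FOXO1, FTL, NCL, PSCA, SCNN1A and SCNN1B fall outside it and were chosen after their values were seen. Motifs were searched on both strands of RefSeq promoters (GRCh38.p14), matched by Entrez gene identifier for 10562 of the genes. Antioxidant, sterol and heat shock elements and the CCAAT and CHR letters of mitotic genes were searched as well and are not described. Alternatives covered background correction, scaling, the authors' log2 values, filters, the choice of probe, the fit, the replicate block and each array left out. Replicate numbers did not pair the arrays.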

Additional observations from a re-analysis of the deposited data

Results flagged for a closer look

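Probes for which the annotation gave no single gene name took no part in the comparisons of genes, and they carried a signal of their own. Of 6792 such probes that passed the detection filter, 606 were higher with rosiglitazone than in the control arrays and 686 were lower (limma adjusted p below 0.05), 19% of them in all, against 28.7% of all kept probes. At least 2-fold differences were found in 92 higher and 49 lower. The probe with the largest difference, ILMN_1815203, was detected on no control array and read 10.13, 9.95 and 10.10 with the drug (limma adjusted p = 9.7e-13). ILMN_3275206 read 8.11, 8.16 and 8.03 in controls and 4.96, 5.22 and 4.87 with the drug.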

How the results depend on the processing

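No gene called in all 12 arrays reversed its call in any alternative. Between 4274 and 4785 of the 4789 calls were shared by the alternatives that kept all 6 arrays, which made 4530 (median scaling) to 6225 (array weights) calls. Median scaling moved the share of higher genes among the calls from 47.2% to 40% and the median of all genes from -0.0172 to -0.0529. The counts of genes at least 2-fold higher and lower, 316 and 223, were 204 and 113 without background correction, 202 and 113 with a neqc offset of 50, and 204 and 113 in the authors' log2 values. The mean of all kept probes reversed FGFR3 (-0.0290, adjusted p = 0.928), MCL1 (0.0137, 0.919) and PHLDA1 (-0.0121, 0.967), none of them then called. Leaving out 1 array gave 3590 (treated replicate 3) to 4261 (treated replicate 2) calls, with 1718 to 2020 genes higher, 1872 to 2241 lower, 287 to 355 at least 2-fold higher and 216 to 239 at least 2-fold lower, and over all kept probes 5180 to 6257 calls, 2574 to 3070 higher and 2606 to 3187 lower. With the replicate number as a block, 4578 genes were called, 4378 of them shared. Deviations of same-numbered arrays correlated at -0.0085, -0.0356 and -0.0301, so the numbers give no pairing. Genes near the detection limit have bounds only.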

Other observations

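Secreted and surface proteases were lower where they changed: of 20 tested with their inhibitors, 7 fell and none rose, and 3 or 4 fell in each fit that left out control replicate 2 or 3 or any treated array. Among 15 clustered histone genes 3 rose and 1 fell (26.7% called against 36.0% of all genes).

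Probes of 1 gene did not always move together. Of 3816 genes with more than 1 kept probe, 863 had at least 2 called probes (limma adjusted p below 0.05), and in 837 of these all called probes went 1 way. In the other 26 genes the probes were called in opposite directions. CSTF3, a subunit of the cleavage stimulation factor that acts in polyadenylation, had a probe that rose by 1.03, from 6.93, 6.59 and 6.59 in controls to 7.70, 7.87 and 7.64. Another of its probes read 10.64, 10.75 and 10.72 against 9.71, 9.99 and 9.65 and fell by 0.92, and the remaining probes of the gene were not called. BCCIP, a partner of BRCA2 and p21, had a probe that rose by 0.67, while another read 7.40, 7.48 and 7.15 against 6.43, 6.46 and 6.14 and fell by 1.00. TSC22D1, a leucine zipper protein of TGF-beta signalling, had 3 probes that rose, by 1.36, 1.05 and 0.60, and 1 that fell by 0.51, and the annotation gives the last the same transcript accession as the probe at 1.05. Whether the probes read different transcripts was not tested.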
